A study of Mus musculus with 6 samples.

Results

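The genes of glucose uptake and of the first step of glucose use were examined in mouse embryonic fibroblasts (MEFs) on the way to induced pluripotent stem cells. The group was taken by name and holds 10 of the 54331 genes in the deposited table. Of these, 6 encode glucose transporters (*Slc2a1*, *Slc2a3*, *Slc2a4*, *Slc2a6*, *Slc2a8* and *Slc2a10*) and 4 encode hexokinases (*Hk1*, *Hk2*, *Hk3* and *Hkdc1*).

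Glucose enters most cells down its gradient through carriers of the GLUT family, which the Slc2a genes encode. Hexokinases then add a phosphate to glucose, which holds it inside the cell and feeds glycolysis, the pentose phosphate pathway, glycogen and hexosamine synthesis. AKT, a kinase downstream of insulin and growth factor receptors, is known to raise glucose uptake and to bring hexokinase to mitochondria. Pluripotent stem cells are known for a high rate of glycolysis.

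The study asked what AKT activity does while the Yamanaka factors reprogram fibroblasts, and RNA sequencing compared 2 groups of 3 wells at 10 days postinfection (dpi). All 6 wells held male MEFs from E13.5 Oct4-EGFP transgenic embryos of mixed C57BL/6, DBA/2 and ICR background, and all had received retroviruses for Oct4, Sox2 and Klf4 (OSK) and for AKT-MER (together, OSKA). AKT-MER is a membrane-anchored AKT fused to a modified estrogen receptor that becomes active when it binds 4-hydroxytamoxifen (4OHT). From 3 dpi, the OSKA + 4OHT wells received 4OHT (AKT activated) and the OSKA − 4OHT wells received its vehicle, ethanol (AKT nonactivated). The fibroblasts were a mix of several embryos, and infected cells were split into the wells at 3 dpi. The p-values therefore measure the spread between wells, which may be technical. AKT-MER came from a viral vector and not from the cell's own gene, and a control with 4OHT but without AKT-MER was not analysed here. No sorting of the cells is described, so a library can mix cells at different stages, and in such bulk RNA a change in the number of expressing cells cannot be told apart from a change in RNA per cell.

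The values are TPM (transcripts of a gene per 1000000 transcripts in a library), a level per transcript length that keeps no record of the sequencing depth. Wells are numbered as the replicates in the labels. The OSKA − 4OHT libraries had 15814 to 17692 genes above 0 TPM, and the OSKA + 4OHT libraries had 17578 to 18230. A gene with a value of 0 is said to be listed at 0, as this value was also given to 97 of 5708 well expressed genes (median above 20 TPM) in some library. Differences were tested by limma-trend in units of log2(TPM + 0.5), for the 15382 genes that averaged 1 TPM or more. Calls required a Benjamini-Hochberg adjusted p-value under 0.05 together with an absolute log2 fold change above 1. The log2(TPM + 0.5) scale understates the change of genes with low levels. Over all tested genes the log2 fold change had a median of 0.14, which quantile normalization shifted by -0.15. Of all called genes 67.7% were higher in OSKA + 4OHT, against 53.1% after quantile normalization.

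The fibroblast label was checked against 8 markers. They summed to 6100 to 7982 TPM per library without 4OHT and to 4106 to 5367 TPM with it. Most of this was *Vim*, at 3374 to 4553 TPM without 4OHT and 2075 to 3065 TPM with it. *Pdgfra* was at only 4.78 to 6.50 TPM over all wells, so the sum does not measure the share of fibroblasts. Of the 8, *Pdgfrb* was called lower in OSKA + 4OHT (log2 fold change -1.65, Benjamini-Hochberg adjusted p = 0.0113, limma-trend), and *Col1a2* was lower by less than the fold threshold (log2 fold change -0.88, adjusted p = 0.0285). The wells did not overlap for 4 of the 8 that were lower and for 2, *Thy1* and *Dcn*, that were higher. Without overlap, 10.0% of all tested genes were lower and 18.1% were higher. Of 7 pluripotency markers, 4 were called higher (*Nanog*, *Zfp42*, *Tdgf1* and *Dppa5a*, the last listed at 0 in every OSKA − 4OHT library). Over all tested genes, 2.87% were called higher and 1.37% lower. The summed level of the 7 was between 12.9 and 15.3 TPM without 4OHT and between 52.7 and 66.1 TPM with it. None of 8 macrophage markers was called by limma-trend, with 2 lower at an unadjusted p-value under 0.05 (over all tested genes, 14.1% were higher and 7.18% lower at that level), of which *Lyz2* had an adjusted p-value under 0.05 as well (log2 fold change -0.88, adjusted p = 0.0299). The wells did not overlap for 3 of the 8, all lower, where 10.0% of all tested genes were lower without overlap. The summed level of the 8 was between 201.8 and 235.7 TPM without 4OHT and between 129.5 and 147.5 TPM with it. The sums of these lists moved with the 4OHT groups, and their part in the results was not tested. *Akt1* itself, whose values may include reads of the AKT-MER vector, was at 749.3, 750.6 and 653.3 TPM in wells 1 to 3 without 4OHT and at 621.4, 641.6 and 448.4 TPM in wells 1 to 3 with it, and was not called. Its level does not report the activity of the kinase.

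Of the 10 genes, 7 passed the filter on low levels, and 2 of the 7 were called, both higher in OSKA + 4OHT: *Slc2a1* and *Hk1*. Over all tested genes, 2.87% were called higher and 1.37% were called lower. None of the 7 was called lower by limma-trend, and none was lower at an unadjusted p-value under 0.05, as 7.18% of all tested genes were. The same 2 genes, and no other of the 7, had an adjusted p-value under 0.05, which 3.52% of all tested genes had in the higher direction and 1.97% in the lower. The wells of the 2 groups did not overlap for 3 of the 7 (*Slc2a1*, *Slc2a3* and *Hk1*), each higher in OSKA + 4OHT. Among all tested genes, 18.1% were higher and 10.0% were lower without overlap. The remaining 4 tested genes overlapped between the groups, and *Slc2a4*, *Hk3* and *Hkdc1* lay below the filter.

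**Figure D1:**
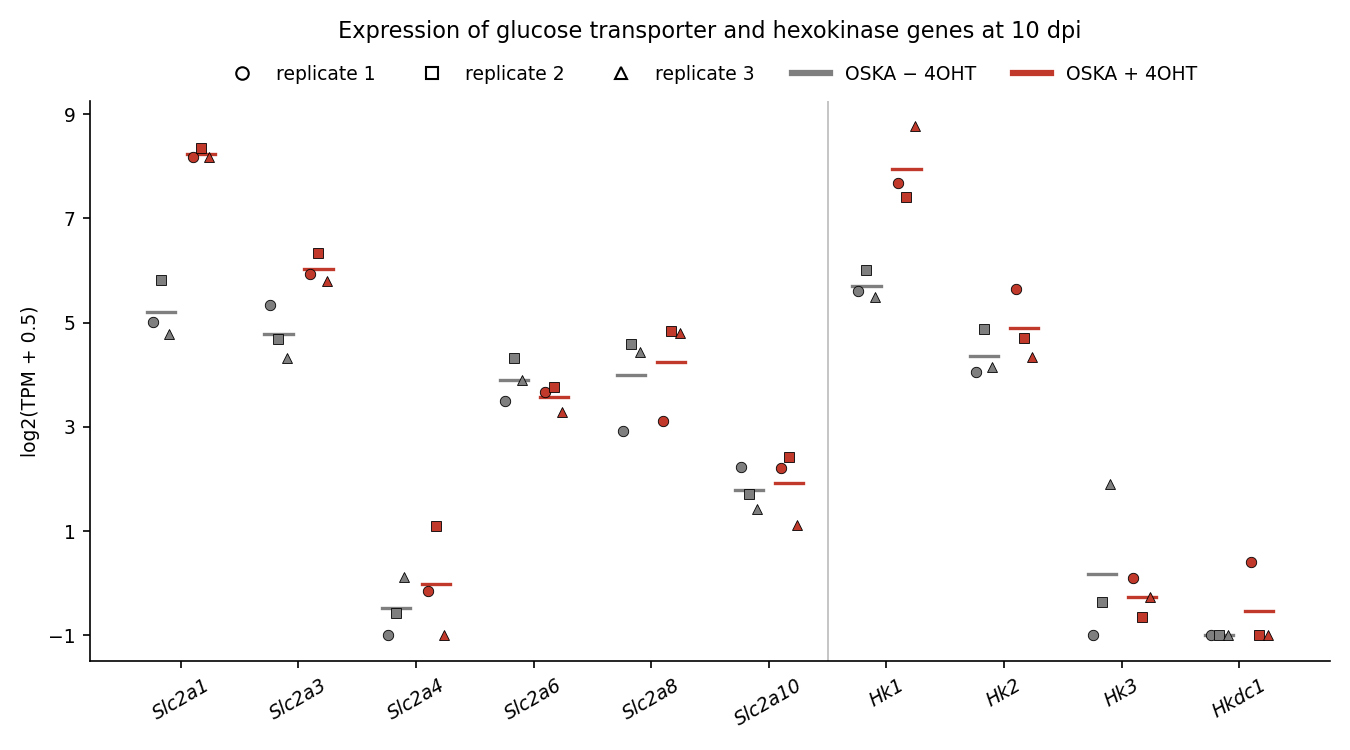
Level of the 10 genes in each well on the log2(TPM + 0.5) scale, with OSKA − 4OHT in gray and OSKA + 4OHT in red; symbols mark the replicate and horizontal bars the mean of the 3 log2 values, and a gene listed at 0 lies at -1. The red points of *Slc2a1*, *Slc2a3* and *Hk1* lie above all of their gray points, whereas those of the other genes share a range with them.

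*Slc2a1* encodes GLUT1, the carrier for basal glucose uptake in fibroblasts and many growing cells. It lies on chromosome 4 (GRCm38, chr4:119108711-119137983, plus strand; ENSMUSG00000028645). Its level was 32.0, 55.9 and 27.1 TPM in wells 1 to 3 without 4OHT and 289.8, 326.3 and 289.1 TPM in wells 1 to 3 with it. The groups were far apart, as the highest well without 4OHT stayed well below the lowest well with it. Mean levels were 38.3 ± 15.4 and 301.7 ± 21.2 TPM (SD, n = 3 each), so the gene rose by a ratio of 7.88. On the log2 scale this was 3.03 (standard error 0.273), with a 95% interval that corresponds to a rise of 5.17-fold to 12.9-fold (Benjamini-Hochberg adjusted p = 0.00462, limma-trend). Among the 15382 tested genes it ranked 141st from the top by log2 fold change. The call held in all 6 fits that left out 1 well, with log2 fold changes from 2.82 to 3.33. As a limit of the design, an exact permutation test of 3 wells against 3 cannot give a 2-sided p-value under 0.1.

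The wells of *Slc2a1* also differed in how tightly they agreed. The highest well was 2.07 times the lowest among the OSKA − 4OHT wells and 1.13 times the lowest among the OSKA + 4OHT wells. The antisense gene *Gm12868* overlaps the end of *Slc2a1* and shares 108 bases with it at 99.1% identity. It was listed at 0 in all OSKA − 4OHT libraries and at 2.71, 0 and 3.05 TPM in wells 1 to 3 with 4OHT, which is small beside *Slc2a1*. Among the GENCODE transcripts of all types, none of another gene besides *Gm12868* matched a protein-coding *Slc2a1* transcript at 90% identity over 100 bases or more.

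Because *Slc2a1* and *Hk1* were the members called, their promoters are shown with that of *Hk2*, a hexokinase gene that was not called. Each sequence holds the 250 bases before a RefSeq transcription start (GRCm38.p6), written in the direction of transcription. The 3 regions are chr4:119108495-119108744 on the plus strand, chr10:62340422-62340671 on the minus strand and chr6:82774455-82774704 on the minus strand. Of 2 starts listed for *Hk1*, the one shown is the downstream one, which lies inside the gene. Capitals mark ACGTG and GCGTG, the core of the hypoxia response element, or their reverse complements CACGT and CACGC.
Slc2a1: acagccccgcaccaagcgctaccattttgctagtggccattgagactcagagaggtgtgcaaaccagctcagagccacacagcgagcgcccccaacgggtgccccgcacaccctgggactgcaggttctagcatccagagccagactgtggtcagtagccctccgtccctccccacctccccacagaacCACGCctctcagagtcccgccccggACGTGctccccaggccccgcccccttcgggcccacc
Hk1: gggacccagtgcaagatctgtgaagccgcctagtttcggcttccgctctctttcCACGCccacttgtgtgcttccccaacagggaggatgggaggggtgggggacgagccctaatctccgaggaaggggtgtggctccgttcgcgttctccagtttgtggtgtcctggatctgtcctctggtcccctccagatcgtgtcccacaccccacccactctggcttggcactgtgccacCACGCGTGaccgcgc
Hk2: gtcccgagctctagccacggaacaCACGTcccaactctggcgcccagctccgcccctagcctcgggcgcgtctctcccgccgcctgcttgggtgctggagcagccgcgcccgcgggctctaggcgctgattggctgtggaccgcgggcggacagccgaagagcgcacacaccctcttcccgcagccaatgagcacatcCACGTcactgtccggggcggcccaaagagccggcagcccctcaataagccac
The *Slc2a1* promoter held 1 ACGTG, 36 bases before the start, and 1 GCGTG on the other strand, 61 bases before it. The downstream *Hk1* promoter held 3 GCGTG and no ACGTG, at 196, 15 and 12 bases before the start, and those at 15 and 12 overlap on opposite strands. The *Hk2* promoter held 2 ACGTG, both on the other strand, at 226 and 52 bases. Such short motifs are common. ACGTG was found on either strand in 16.6% and GCGTG in 28.2% of 32851 mouse promoters of this length, and 38.6% held at least 1 of them. The upstream *Hk1* promoter (chr10:62379909-62380158, minus strand), which borders the annotated beginning of the gene, held neither. The E-box CACGTG, which contains ACGTG and was found in 6.0% of all promoters, and the forkhead motif GTAAACA, found in 3.2%, were absent from these windows for all 8 members with a promoter entry. Of the others, *Slc2a6* held 4 GCGTG, *Slc2a8* 1 GCGTG and *Hk3* 1 ACGTG, whereas *Slc2a10* and *Hkdc1* held neither. The promoters of the called and the uncalled genes thus both held these letters. The *Slc2a1*, *Hk1* and *Hk2* windows had GC contents of 66.4%, 62.8% and 69.6%, against a median of 52.4% over all promoters. A match of letters is a description and does not show binding, and the deposited table gives 1 level per gene, so the *Hk1* starts cannot be told apart.

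*Slc2a3* encodes GLUT3, a carrier with high affinity for glucose that is typical of neurons and early embryos. It lies on chromosome 6 (GRCm38, chr6:122727809-122801640, minus strand; ENSMUSG00000003153). Its level was 40.2, 25.1 and 19.4 TPM in wells 1 to 3 without 4OHT and 60.6, 80.8 and 54.9 TPM in wells 1 to 3 with it. All 3 wells with 4OHT lay above all 3 wells without it. The means were 28.2 ± 10.7 and 65.4 ± 13.6 TPM (SD, n = 3 each), a ratio of 2.32. The log2 fold change of 1.24 (standard error 0.301, 95% interval 0.52 to 1.97) did not pass the threshold (Benjamini-Hochberg adjusted p = 0.0690, limma-trend). Without OSKA − 4OHT replicate 1, the highest of its group, the gene was called (log2 fold change 1.53, adjusted p = 0.0472), and in the other 5 such fits it was not, with adjusted p-values up to 0.205.

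*Slc2a6* encodes GLUT6, a carrier found mostly on membranes inside the cell. It lies on chromosome 2 (GRCm38, chr2:27021363-27027998, minus strand). Its level was 10.8, 19.5 and 14.3 TPM without 4OHT and 12.2, 13.1 and 9.27 TPM with it, in replicates 1 to 3. The groups overlapped, and the log2 fold change was -0.33 (95% interval -0.99 to 0.33, Benjamini-Hochberg adjusted p = 0.548, limma-trend). The interval leaves room for a fall to 0.503-fold and for a rise to 1.26-fold, and it does not reach the log2 fold change of *Slc2a1*. In the 6 fits without 1 well the log2 fold change of *Slc2a6* lay between -0.53 and -0.12, and the gene was not called in any.

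*Slc2a8* encodes GLUT8, another carrier held mostly inside the cell, and lies on the same chromosome (GRCm38, chr2:32972990-32982083, minus strand). Its level was 7.10, 23.8 and 21.2 TPM in wells 1 to 3 without 4OHT and 8.16, 28.2 and 27.6 TPM in wells 1 to 3 with it. In both groups the well labelled replicate 1 was the low one, and the highest well was 3.35 and 3.46 times the lowest. The log2 fold change was 0.27 with a wide 95% interval from -1.26 to 1.80 (Benjamini-Hochberg adjusted p = 0.844, limma-trend), and its sign turned in 3 of the 6 fits without 1 well.

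*Slc2a10* encodes GLUT10, a carrier known from arterial tortuosity when it is lost (GRCm38, chr2:165503787-165519917, plus strand). Its level was low, at 4.19, 2.77 and 2.17 TPM without 4OHT and 4.12, 4.90 and 1.67 TPM with it. The groups overlapped. The log2 fold change was 0.13 (95% interval -0.98 to 1.25, Benjamini-Hochberg adjusted p = 0.900, limma-trend), and its sign turned after quantile normalization and in 3 of the 6 fits without 1 well.

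*Slc2a4* encodes GLUT4, the carrier that insulin and AKT bring to the surface of muscle and fat cells (GRCm38, chr11:69942539-69948188, minus strand). It was listed at 0, 0.178 and 0.583 TPM in wells 1 to 3 without 4OHT and at 0.402, 1.66 and 0 TPM in wells 1 to 3 with it. It lay under the filter and was not tested, and each group had a well listed at 0. The fat cell genes *Adipoq*, *Plin1*, *Lep* and *Cfd* and the muscle regulators *Myod1* and *Myog* were listed at 0 in all 6 libraries. The 6 muscle markers summed to 4.54, 0.651 and 10.9 TPM in wells 1 to 3 without 4OHT and to 0.820, 0.750 and 0.774 TPM in wells 1 to 3 with it. Most of this was *Des*, the muscle filament gene, which was above 0 in every library, was the only one of the 6 that was tested and was not called (log2 fold change -1.66, adjusted p = 0.323). The summed level of the 6 adipocyte markers was between 6.75 and 14.8 TPM without 4OHT and between 19.5 and 21.2 TPM with it. Of these 6, 2 were tested (*Lpl* and *Fabp4*) and none was called by limma-trend. *Lpl*, the larger part of the sum, was at 12.3, 6.75 and 6.84 TPM in wells 1 to 3 without 4OHT. With 4OHT it was at 18.2, 18.4 and 18.1 TPM (log2 fold change 1.09, adjusted p = 0.0728, limma-trend). It was higher at an unadjusted p-value under 0.05, as 14.1% of all tested genes were.

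**Figure D2:**
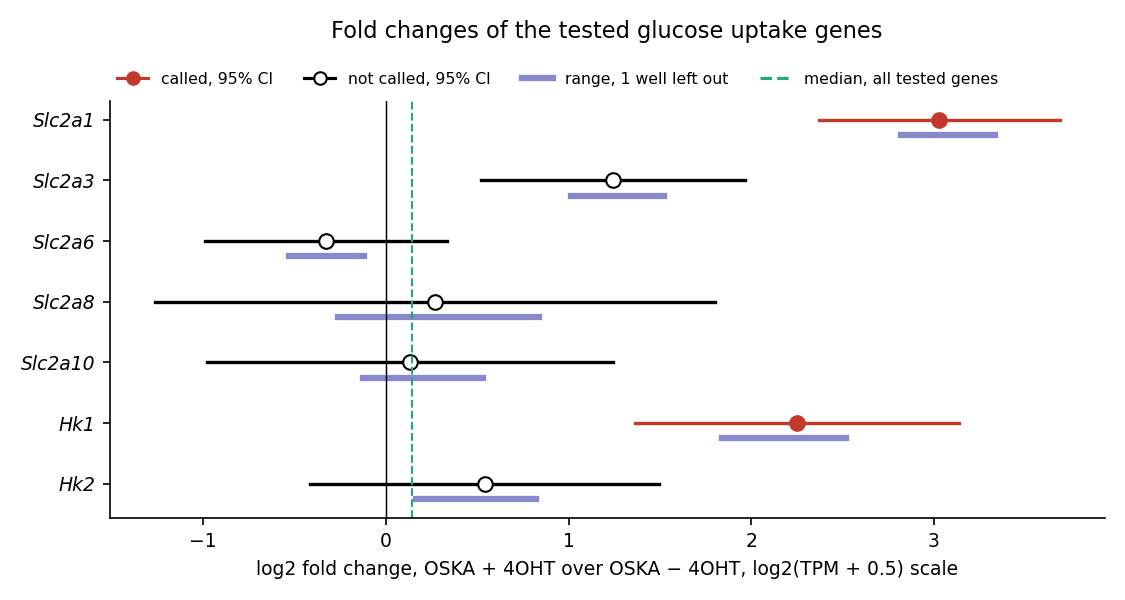
Log2 fold change of OSKA + 4OHT over OSKA − 4OHT for the 7 tested genes on the log2(TPM + 0.5) scale, with 95% intervals, filled red points for called genes, open points for genes not called, blue bars for the range over the 6 fits without 1 well, and a dashed line at the median of all tested genes (0.14). *Slc2a1* and *Hk1* lie to the right at 3.03 and 2.25, and the intervals of *Slc2a6*, *Slc2a8*, *Slc2a10* and *Hk2* include 0.

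*Hk1* encodes hexokinase 1, which is made in most tissues and can sit on the outer mitochondrial membrane. It lies on chromosome 10 (GRCm38, chr10:62268855-62379908, minus strand; ENSMUSG00000037012). Its level was 48.3, 63.9 and 44.3 TPM in wells 1 to 3 without 4OHT and 203.7, 169.5 and 436.3 TPM in wells 1 to 3 with it. The groups did not overlap, and OSKA + 4OHT replicate 3 stood apart, since the highest well of that group was 2.57 times the lowest. Mean levels were 52.2 ± 10.4 and 269.9 ± 145.2 TPM (SD, n = 3 each), so the gene rose by a ratio of 5.17. The log2 fold change was 2.25 (standard error 0.368), and its 95% interval corresponds to a rise of 2.57-fold to 8.80-fold (Benjamini-Hochberg adjusted p = 0.0248, limma-trend).

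The call of *Hk1* was not held in every fit. With the replicate number as a block the log2 fold change was 2.25 and the gene was not called (adjusted p = 0.107). Without OSKA + 4OHT replicate 3 the log2 fold change was 1.84 and the gene was still called (Benjamini-Hochberg adjusted p = 0.0273, limma-trend). When any of the other 5 wells was left out, the log2 fold change stayed between 2.14 and 2.52, but the adjusted p-value lay between 0.0529 and 0.0800 and the gene was not called. The antisense gene *Hk1os* shares 157 bases with an *Hk1* transcript at 100% identity. It was listed at 0, 1.67 and 0 TPM in wells 1 to 3 without 4OHT and at 5.79, 3.42 and 2.05 TPM in wells 1 to 3 with it. *Hk1os* was highest in OSKA + 4OHT replicate 1 and *Hk1* in OSKA + 4OHT replicate 3, and the effect of shared reads was not tested. GENCODE lists 20 transcripts of *Hk1*, from 254 to 4278 bases long, and TPM depends on which of them the reads were assigned to.

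*Hk2* encodes hexokinase 2, the main hexokinase of muscle and fat, which many tumors raise (GRCm38, chr6:82725025-82774454, minus strand; ENSMUSG00000000628). Its level was 16.1, 28.9 and 17.2 TPM in wells 1 to 3 without 4OHT and 49.5, 25.7 and 19.7 TPM in wells 1 to 3 with it. Only OSKA + 4OHT replicate 1 lay above every well of the other group. The means were 20.7 ± 7.08 and 31.7 ± 15.8 TPM (SD, n = 3 each). The log2 fold change was 0.54 (95% interval -0.41 to 1.50, Benjamini-Hochberg adjusted p = 0.501, limma-trend). The interval spans a fall to 0.750-fold and a rise to 2.82-fold. In the 6 fits without 1 well the log2 fold change of *Hk2* lay between 0.17 and 0.82, and the gene was not called in any. Among the OSKA + 4OHT wells, replicate 3 had the highest *Hk1* level and the lowest *Hk2* level.

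*Hk3*, a hexokinase gene known from myeloid blood cells (GRCm38, chr13:55005985-55021385, minus strand), was listed at 0, 0.282 and 3.22 TPM in wells 1 to 3 without 4OHT and at 0.573, 0.138 and 0.336 TPM in wells 1 to 3 with it. A single well, OSKA − 4OHT replicate 3, held the value above 1 TPM. *Hkdc1* (GRCm38, chr10:62383137-62422491, minus strand), which lies 3228 bases from *Hk1*, was listed at 0 in 5 libraries and at 0.827 TPM in OSKA + 4OHT replicate 1. Neither was tested. The only value of *Hkdc1* above 0 was thus in a well with 4OHT, and a link to the level of *Hk1* was not tested.

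Since TPM is a level per length, the members of a family can be set side by side within a library. The summed level of the 6 transporter genes was 94.2, 127.2 and 84.8 TPM in wells 1 to 3 without 4OHT and 375.3, 455.0 and 382.5 TPM in wells 1 to 3 with it. The means were 102.1 ± 22.3 and 404.3 ± 44.1 TPM (SD, n = 3 each), which gives a ratio of 3.96. The share of *Slc2a1* in this sum was 33.9%, 43.9% and 31.9% without 4OHT and 77.2%, 71.7% and 75.6% with it. *Slc2a1* was therefore less than the sum of the others in every OSKA − 4OHT well and more than that sum in every OSKA + 4OHT well. The share of *Slc2a3* was 28.4 ± 12.4% without 4OHT and 16.1 ± 1.71% with it (SD, n = 3 each), although its own level was higher with 4OHT. The shares of *Slc2a6* and *Slc2a8* were 14.6 ± 2.81% and 17.1 ± 8.84% without 4OHT and 2.85 ± 0.414% and 5.19 ± 2.66% with it. These shares depend on one another and were not tested.

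The order of the transporter genes was not settled without 4OHT. By mean level it was *Slc2a1*, *Slc2a3*, *Slc2a8*, *Slc2a6*, *Slc2a10* and *Slc2a4*, but the ranges of neighbours overlapped from *Slc2a1* down to *Slc2a6*, and in OSKA − 4OHT replicate 1 *Slc2a3* was above *Slc2a1*. The ratio of *Slc2a1* to *Slc2a3* was 0.796, 2.23 and 1.39 in the OSKA − 4OHT wells. It was 4.78, 4.04 and 5.27 in the OSKA + 4OHT wells. The order of the means was the same with 4OHT, and there only *Slc2a8* and *Slc2a6* overlapped among neighbours.

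The hexokinase genes kept their order in both groups. *Hk1* was above *Hk2* and *Hk2* above *Hk3* without overlap of their ranges, and *Hk3* and *Hkdc1* overlapped near 0. The summed level of the 4 genes was 64.3, 93.1 and 64.8 TPM in wells 1 to 3 without 4OHT and 254.6, 195.4 and 456.4 TPM in wells 1 to 3 with it, a ratio of means of 4.08. *Hk1* made up 75.1%, 68.7% and 68.4% of this sum without 4OHT and 80.0%, 86.8% and 95.6% with it. Thus *Hk1* was the main hexokinase transcript already without 4OHT, whereas *Slc2a1* exceeded the sum of the other transporter genes only in the wells with it. The ratio of *Hk1* to *Hk2* ranged from 2.22 to 3.01 in OSKA − 4OHT and from 4.11 to 22.1 in OSKA + 4OHT.

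**Figure D3:**
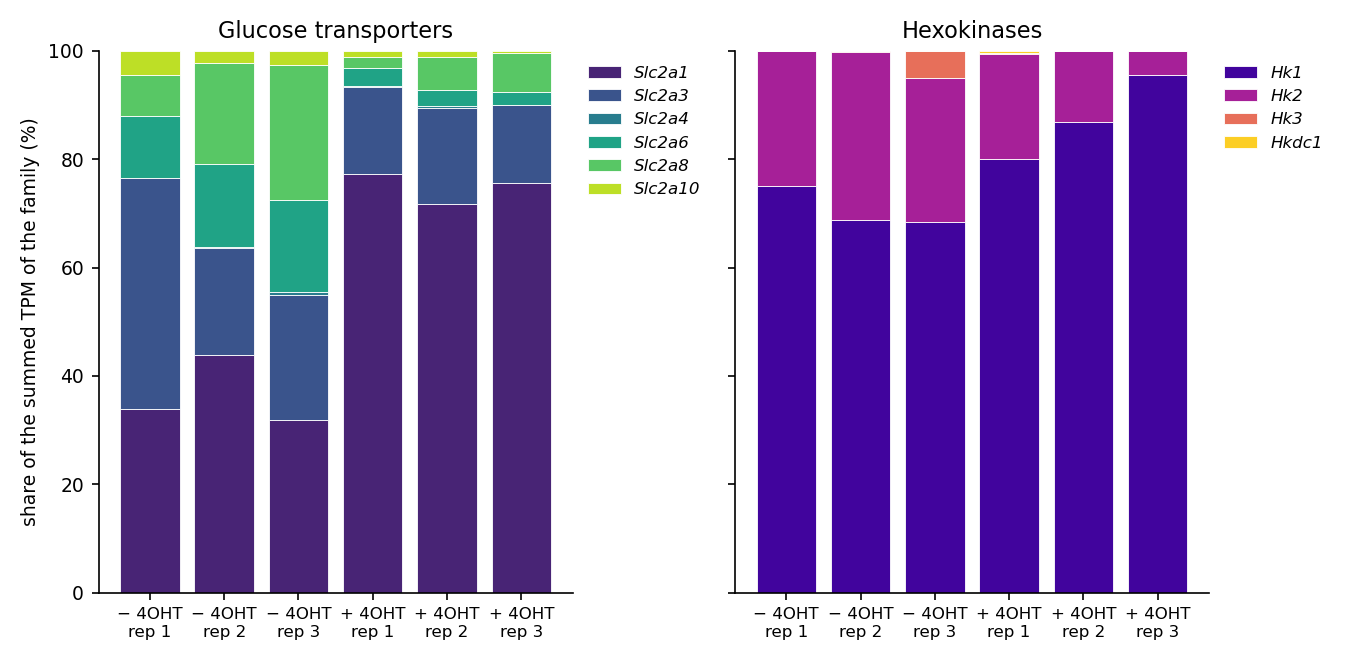
Share of each gene in the summed TPM of its family in each well, for the 6 transporter genes (left) and the 4 hexokinase genes (right); each stacked bar is 1 library and adds up to 100%. The share of *Slc2a1* lies between 31.9% and 43.9% in the OSKA − 4OHT wells and between 71.7% and 77.2% in the OSKA + 4OHT wells, and *Hk1* holds the largest part of every hexokinase bar.

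The levels of *Slc2a1* and *Hk1* did not keep a constant proportion across the wells. The ratio of *Slc2a1* to *Hk1* was 0.662, 0.874 and 0.611 in wells 1 to 3 without 4OHT and 1.42, 1.93 and 0.663 in wells 1 to 3 with it. In OSKA + 4OHT replicate 3, where *Hk1* was at its highest, the ratio lay within the range of the wells without 4OHT.

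The genes whose profile over the 6 wells lay closest to that of *Slc2a1* were *Ralyl*, *Avil* and *Pcdh8*, with Euclidean distances of 0.361, 0.397 and 0.528 between centred log2(TPM + 0.5) values. *Avil*, which encodes the actin-binding protein advillin, was at 18.4, 46.1 and 16.1 TPM in wells 1 to 3 without 4OHT and at 193.1, 210.6 and 186.4 TPM in wells 1 to 3 with it. It shared with *Slc2a1* both the size of the rise and the higher level of OSKA − 4OHT replicate 2. *Ralyl* and *Pcdh8* were near 0 without 4OHT and between 3.64 and 5.24 TPM with it. Genes that differ strongly between the groups are near each other by construction, so the likeness is only a description of these 6 wells.

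Around the 10 genes, 8 lists of textbook genes of glucose uptake and use were followed. Of their 91 genes 90 were matched and 79 tested, of which 7 were called higher and 1 lower. An adjusted p-value under 0.05 was seen for 12 that were higher and 1 that was lower. Among all tested genes 2.87% were called higher and 1.37% lower. The wells of the groups did not overlap for 30 genes that were higher and 7 that were lower, against 18.1% and 10.0% of all tested genes. Of the 8 called genes, 5 belonged to the list of glycolysis below hexokinase and lactate export.

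Among the other hexose carriers of the Slc2a and Slc5a families, 10 genes, 5 were tested and none was called by limma-trend, with 2 higher and 1 lower at an unadjusted p-value under 0.05. Of the 5, 2 had a positive and 3 a negative log2 fold change. Their median was -0.64 and lay between -1.02 and -0.30 under the alternatives. *Slc2a7*, *Slc5a2* and *Slc5a10* were listed at 0 in every library. The 10 genes together summed to 35.7, 27.9 and 20.6 TPM in wells 1 to 3 without 4OHT and to 41.3, 40.2 and 41.3 TPM in wells 1 to 3 with it. Of 6 tested kinases for other hexoses or with other phosphate donors, none was called by limma-trend and 0 had an unadjusted p-value under 0.05, with a median of -0.02.

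The list on the return of glucose 6-phosphate to glucose held phosphatase genes and carrier genes of the Slc37a family. The phosphatase genes *G6pc* and *G6pc2* were listed at 0 in every library. None of the 4 tested (the phosphatase gene *G6pc3* and the carrier genes *Slc37a1*, *Slc37a2* and *Slc37a4*) was called by limma-trend. The 1 that was higher at an unadjusted p-value under 0.05 was the carrier gene *Slc37a2*, and *G6pc3* had a log2 fold change of -0.05. Of 14 genes for the traffic and turnover of the transporters, such as *Txnip*, which promotes removal of GLUT1 from the cell surface, none was called by limma-trend. There, 2 were higher and 0 lower at an unadjusted p-value under 0.05, and the median was 0.21, close to that of all tested genes. *Txnip* itself was at 33.4, 40.8 and 29.4 TPM without 4OHT and at 42.1, 40.0 and 41.0 TPM with it, and the groups overlapped.

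Of 5 tested genes that hold or regulate hexokinases, 1 was called higher, where 2.87% of all tested genes were. *Tigar*, *Vdac1* and *Vdac2* were higher at an unadjusted p-value under 0.05 and without overlap. That is 3 of the 5, against 14.1% and 18.1% of all tested genes, and 0 were lower by either measure. *Tigar*, a phosphatase that lowers fructose 2,6-bisphosphate and can bind hexokinase 2, rose by 1.27 on the log2 scale, with means of 9.97 ± 1.64 and 24.6 ± 3.41 TPM (SD, n = 3 each; Benjamini-Hochberg adjusted p = 0.0250, limma-trend). Its 3 wells with 4OHT lay between 21.3 and 28.1 TPM, above all wells without it, but it was called in 0 of the 6 fits without 1 well, where the adjusted p-value lay between 0.0565 and 0.0970. *Vdac1*, the outer mitochondrial channel to which hexokinases bind, was at 437.4 ± 30.3 and 609.8 ± 49.0 TPM (SD, n = 3 each) without overlap, and its log2 fold change of 0.48 did not pass (Benjamini-Hochberg adjusted p = 0.0598, limma-trend).

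Of 14 tested transcription factors known to act on glucose uptake genes, 1 was called higher and 1 lower, and both belong to the same family. *Myc* fell from 41.2, 36.7 and 41.5 TPM to 17.8, 19.3 and 18.4 TPM in replicates 1 to 3 (log2 fold change -1.08, Benjamini-Hochberg adjusted p = 0.0144, limma-trend). *Mycn* was at 1.23, 0.551 and 0.688 TPM without 4OHT and 4.51, 4.73 and 5.51 TPM with it (log2 fold change 2.06, adjusted p = 0.0338). Both pairs of groups were free of overlap, but *Myc* was called in 3 and *Mycn* in 0 of the 6 fits without 1 well. *Hif1a*, the oxygen-regulated factor that binds the hypoxia response element, was at 79.4 ± 7.78 and 89.6 ± 3.83 TPM (SD, n = 3 each) and was not called (Benjamini-Hochberg adjusted p = 0.511, limma-trend). HIF1A protein is known to be controlled mainly by its degradation, which mRNA levels do not show.

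All 17 genes of glycolysis below hexokinase and of lactate export were tested. Of these, 5 were called higher and 0 lower, 8 had an adjusted p-value under 0.05, and 14 were higher and 0 lower at an unadjusted p-value under 0.05. Of all tested genes, 2.87% were called higher, 3.52% were higher at an adjusted p-value under 0.05 and 14.1% at an unadjusted one. The median log2 fold change of the 17 was 0.99, against 0.14 for all tested genes. Each of the 17 had a positive value, from 0.29 to 2.65. All 17 were positive also under both other scalings, but not when OSKA + 4OHT replicate 1 was left out, where 16 were positive and 1, *Pfkp*, was negative. The scalings gave a median of 0.90 after the trimmed mean of log ratios and 1.08 after quantile normalization. The largest called rise was that of *Slc16a3*, which encodes the lactate exporter MCT4. It was at 18.7, 12.4 and 14.0 TPM in wells 1 to 3 without 4OHT and at 119.8, 119.7 and 60.6 TPM in wells 1 to 3 with it (log2 fold change 2.65, Benjamini-Hochberg adjusted p = 0.0102, limma-trend). The groups did not overlap, and the gene was called in 4 of the 6 fits without 1 well.

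The other called genes of this list were *Gpi1*, *Aldoc*, *Pgk1* and *Ldha*, which are named after their values were seen. *Ldha*, which makes lactate from pyruvate, rose by 1.19 on the log2 scale, with means of 626.5 ± 6.37 and 1444 ± 215.3 TPM (SD, n = 3 each) and was called in 6 of 6 fits without 1 well. *Gpi1*, the isomerase that takes the product of hexokinase to fructose 6-phosphate, rose by 1.06 on the log2 scale, with means of 404.9 ± 19.5 and 844.4 ± 82.8 TPM (SD, n = 3 each) and was called in 5 of the 6. *Pgk1* was called in 3 and *Aldoc* in 1 of the 6. Of 14 other users of hexose phosphates, none was called by limma-trend, with 3 higher and 0 lower at an unadjusted p-value under 0.05, where 14.1% and 7.18% of all tested genes stood. The one with an adjusted p-value under 0.05 was *Pgm1*, which leads toward glycogen, at 25.9 ± 2.60 and 51.1 ± 8.45 TPM (SD, n = 3 each; log2 fold change 0.96, Benjamini-Hochberg adjusted p = 0.0396, limma-trend).

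**Figure D4:**
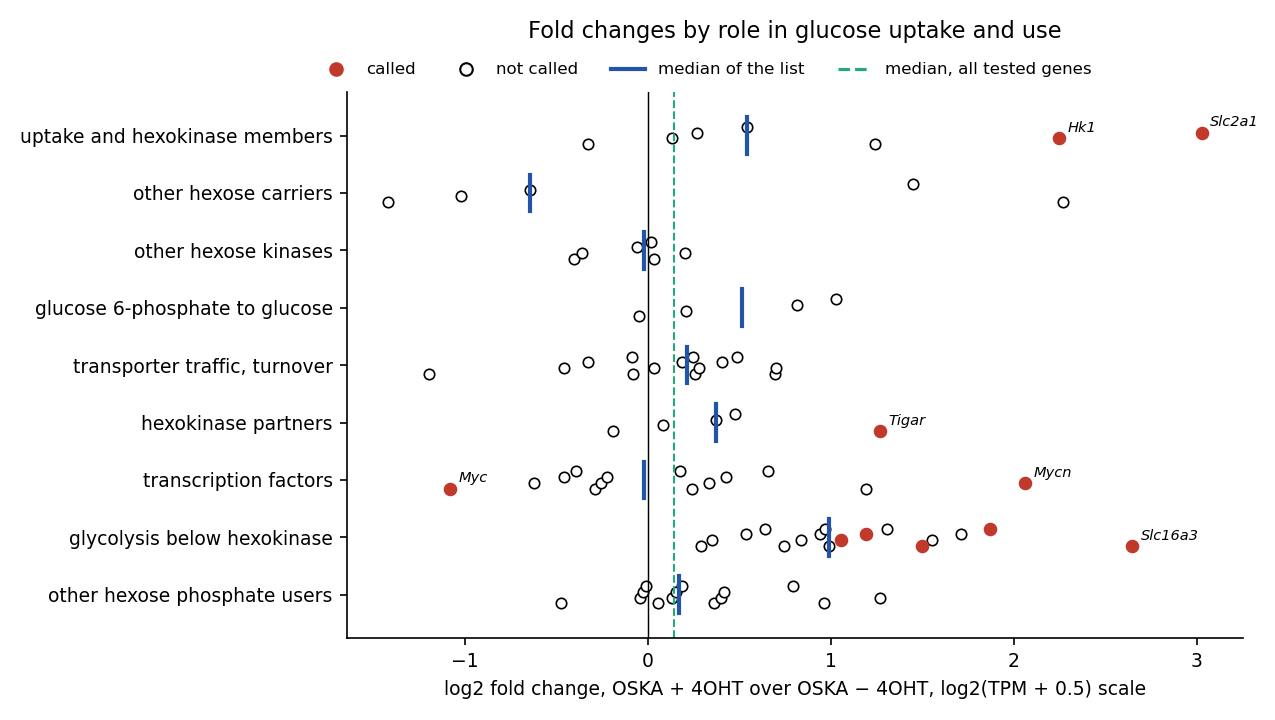
Log2 fold change of OSKA + 4OHT over OSKA − 4OHT on the log2(TPM + 0.5) scale for the tested genes of the uptake group (top) and of the 8 surrounding lists, with 1 point per gene, red for called genes, a blue bar at the median of each list and a dashed line at the median of all tested genes (0.14). *Slc2a1* at 3.03 is the highest point, the glycolysis list has a median of 0.99 with every point above 0, and the other hexose carriers have a median of -0.64.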

How the data were processed

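RNA was sequenced from 3 wells per group as single-end reads of stranded polyA libraries. The authors trimmed the reads with Trim Galore and quantified them with Salmon (named in the submitters' processing notes), and deposited 1 TPM value for each gene in each library. Versions, the transcript annotation and the strand setting are not given in the sources used here. The table also holds the authors' own comparison, with a deposited log2 fold change and log2 average level, a score (F statistic) and a p-value per gene, and these columns were not used. No column of values per sample was left unmapped. The depth is unknown, so no count model and no counting interval was used.

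Symbols and positions were matched by Ensembl identifier to GENCODE M21 (GRCm38), with 54097 of 54331 genes matched, which need not be the release of the authors. Levels were compared as log2(TPM + 0.5) with limma-trend (limma 3.58.1, R 4.3.3) after a filter that kept genes averaging 1 TPM or more, with no block, and p-values were 2-sided and Benjamini-Hochberg adjusted over all 15382 genes. On simulated data with known changes the test missed most of the changed genes and called few others. Look-alike transcripts were sought by BLAST 2.17.0 at 90% identity over 100 bases for the 10 members only, so reads shared with pseudogenes were not checked for other genes, and tables were made with Python 3.11.15 and pandas 2.3.3. Promoters were taken from RefSeq on GRCm38.p6, where 8 of the 10 members had an entry. *Slc2a3* and *Slc2a4* had none there.

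The members, lists and tests were chosen with earlier results of these data known. Named genes were the 10 members, the gene with the largest rise and fall at an adjusted p-value under 0.05 in each other list, and the 3 nearest profiles to *Slc2a1*. Other genes in the text were chosen after their values were seen. The alternatives were pseudocounts of 0.1, 1 and 2, no filter or a limit of 2 TPM, scaling by a trimmed mean of log ratios or by quantiles, other variance models, the replicate number as a block, and each well left out in turn.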

Additional observations from a re-analysis of the deposited data

How the results depend on the processing

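*Slc2a1* kept its call in all 16 alternatives. With the replicate number of the labels as a block, 47 genes were called instead of 651 (31 higher and 16 lower), 1 of the 10 members remained called (*Slc2a1*, Benjamini-Hochberg adjusted p = 0.0499, limma-trend), the adjusted p-value of *Hk1* was 0.107, and 0 of the 79 other genes were called, with 29 at an unadjusted p-value under 0.05, as had 18.7% of all tested genes in that fit. The same-numbered wells deviated together with weak positive correlations of 0.0235, 0.0341 and 0.0837. Each OSKA − 4OHT well correlated best with the OSKA + 4OHT well of its own number, and 0.0837 was the largest value of all. However, OSKA + 4OHT replicate 1 correlated best with OSKA − 4OHT replicate 2 (0.0327). Whether the numbers pair the wells cannot be told from these values, and the main fit held no block. Leaving out 1 well gave 174 to 430 called genes, 111 to 303 higher and 63 to 127 lower, 1 to 2 called members and 1 to 9 called genes of the other lists, the fewest of all called genes without OSKA + 4OHT replicate 1. The fits then rest on fewer wells. Leaving out 1 well moved the log2 fold change of *Slc2a8* between -0.26 and 0.84 and that of *Slc2a10* between -0.12 and 0.53. That of *Slc2a8* turned to -0.26, -0.03 and -0.01 without OSKA − 4OHT replicate 1, OSKA + 4OHT replicate 2 or OSKA + 4OHT replicate 3. That of *Slc2a10* turned to -0.094 after quantile normalization and to -0.05, -0.01 and -0.12 without OSKA − 4OHT replicate 3, OSKA + 4OHT replicate 1 or OSKA + 4OHT replicate 2. The cause was not tested, and both genes were uncalled throughout. *Hk1* kept its call in the 9 alternatives on the pseudocount, filter, scaling and variance model. With no filter, *Slc2a4*, *Hk3* and *Hkdc1* had adjusted p-values of 0.703, 0.777 and 0.604. With TPM alone, the depth behind values under 1 TPM is unknown.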

Other observations

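Some carriers and regulators outside the 10 genes had values that stood out without passing the adjusted test, and they were chosen after their values were seen. *Slc5a1*, which encodes the sodium-glucose cotransporter SGLT1, was at 0.279, 0 and 0 TPM in wells 1 to 3 without 4OHT and at 2.77, 1.75 and 2.48 TPM in wells 1 to 3 with it, without overlap (log2 fold change 2.27, adjusted p = 0.0865, limma-trend). *Slc5a9*, a sodium-coupled sugar carrier, was at 23.6, 7.81 and 8.18 TPM in wells 1 to 3 without 4OHT and at 31.8, 31.7 and 33.7 TPM in wells 1 to 3 with it, without overlap (log2 fold change 1.45, Benjamini-Hochberg adjusted p = 0.113, limma-trend). *Slc2a9*, a urate carrier of the GLUT family, went the other way, from 5.14, 10.2 and 5.99 TPM to 2.17, 4.61 and 0.992 TPM, also without overlap (log2 fold change -1.42, adjusted p = 0.186). *Slc2a12*, which encodes GLUT12, was at 4.60 ± 2.02 TPM without 4OHT and 1.96 ± 0.722 TPM with it (SD, n = 3 each; adjusted p = 0.242 from limma-trend).

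*Aspscr1*, which encodes TUG, a tether of GLUT4 vesicles, was at 204.5 TPM in OSKA − 4OHT replicate 3 and between 24.8 and 43.6 TPM in the other 5 libraries. *Mlx*, a partner of the glucose-sensing factors MondoA and ChREBP, was at 55.1, 52.4 and 17.1 TPM in wells 1 to 3 without 4OHT and at 95.6, 74.1 and 85.5 TPM in wells 1 to 3 with it (log2 fold change 1.19, Benjamini-Hochberg adjusted p = 0.201, limma-trend).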
